A study of Mus musculus with 9 samples.

Results

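The E2F transcription factor genes E2f1 to E2f8 and Mybl2, the gene of B-Myb, were followed in Neuro2a cells, a mouse neuroblastoma line, after siRNA knockdown. The members were all probe sets that the array platform's annotation assigns to one of these 9 gene symbols, which gave 18 of the 45101 probe sets on the array and 9 of the 18193 named genes. Cells had been treated for 48 h with siRNA to Myt1 (siMyT1), with siRNA to Kdm1a (siLSD1), which encodes the histone demethylase LSD1, or with control siRNA (siControl), with 3 arrays per group and 9 in all. Myt1 encodes a neural zinc finger protein, and the series title places it in a neural LSD1 complex. All groups were of the same line and received an siRNA, and the number of siRNA sequences per target is not given in the sources used here. Whether replicates were separate cultures is not labelled. The p-values therefore set differences only against the spread among these samples, which may be technical.

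E2F proteins bind the promoters of genes needed for DNA synthesis and cell division. E2F1, E2F2 and E2F3 are known mainly as activators restrained by the retinoblastoma protein, E2F4 and E2F5 as partners of the related proteins p107 and p130 in resting cells, E2F6 as a repressor that works with Polycomb proteins and without pocket proteins, and E2F7 and E2F8 as atypical repressors that bind DNA without a DP partner. B-Myb is itself induced through E2F sites at the start of S phase and then joins the MuvB complex to switch on genes of mitosis.

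Because several of these genes are known to be controlled through E2F sites in their own promoters, windows at annotated starts were read for the sites. RefSeq promoter windows (GRCm38.p6), from 250 bases before to 50 bases from the start, were given for 7 of the 9 genes, all but E2f4 and E2f5, as 9 windows in all. Both strands were searched for TTTCCCGC, TTTCGCGC, TTTGCCGC, TTTGGCGC and GGCGGGA, where GGCGGGA can overlap TTTCCCGC read from the other strand. A match was found in 5 windows of 4 genes, E2f2, E2f3, E2f7 and Mybl2, and in 12.8% of all 32851 windows of the table. The 1 window given for each of E2f1, E2f6 and E2f8 and the second window of E2f2 did not hold these letters. A window belongs to 1 annotated start, which need not be the main start of the gene. Bases outside the windows were not searched, so a window without a match does not show that the promoter lacks E2F sites. A match is a run of letters, not a site known to be bound. For each of the 4 genes with a match, 1 matching window is shown, with the matches in capitals. In siLSD1 the log2 differences from siControl were -1.82, -0.28, -1.01 and -1.35 for E2f2, E2f3, E2f7 and Mybl2, with a match. They were -0.07, -0.89 and -0.96 for E2f1, E2f6 and E2f8, without a match. A link between matches and differences was not tested.
E2f2 promoter, chr4:136172024-136172323, plus strand: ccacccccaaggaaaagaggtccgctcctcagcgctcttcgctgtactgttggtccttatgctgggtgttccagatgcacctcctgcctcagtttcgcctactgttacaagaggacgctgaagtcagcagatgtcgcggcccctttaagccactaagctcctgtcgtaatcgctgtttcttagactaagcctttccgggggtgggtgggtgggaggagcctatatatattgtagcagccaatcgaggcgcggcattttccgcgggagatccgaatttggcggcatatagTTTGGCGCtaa
E2f7 promoter, chr10:110745189-110745488, plus strand: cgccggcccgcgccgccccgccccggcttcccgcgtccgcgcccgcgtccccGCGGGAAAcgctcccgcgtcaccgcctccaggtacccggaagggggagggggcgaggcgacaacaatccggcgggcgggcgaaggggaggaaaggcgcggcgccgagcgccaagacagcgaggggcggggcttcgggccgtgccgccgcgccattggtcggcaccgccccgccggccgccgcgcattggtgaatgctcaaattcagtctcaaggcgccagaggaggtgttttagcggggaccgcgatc
Mybl2 promoter, chr2:163054385-163054684, plus strand: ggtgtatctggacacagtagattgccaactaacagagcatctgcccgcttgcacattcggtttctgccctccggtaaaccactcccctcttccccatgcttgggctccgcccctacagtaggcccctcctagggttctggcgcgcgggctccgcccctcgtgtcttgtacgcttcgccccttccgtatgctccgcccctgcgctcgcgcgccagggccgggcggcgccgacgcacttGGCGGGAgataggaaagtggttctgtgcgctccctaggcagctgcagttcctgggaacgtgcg
E2f3 promoter, chr13:29986014-29986313, minus strand: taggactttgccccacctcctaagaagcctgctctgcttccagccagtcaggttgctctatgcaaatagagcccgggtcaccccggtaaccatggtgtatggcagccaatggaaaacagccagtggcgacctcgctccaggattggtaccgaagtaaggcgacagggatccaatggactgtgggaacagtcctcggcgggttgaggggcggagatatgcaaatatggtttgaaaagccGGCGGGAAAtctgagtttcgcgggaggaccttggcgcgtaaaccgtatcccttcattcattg
In E2f2 the match TTTGGCGC lay at bases 40 to 47 after the start. The E2f7 match was TTTCCCGC on the opposite strand, beginning 198 bases before the start, and the Mybl2 match was GGCGGGA, beginning 13 bases before it. In E2f3 the capitals cover GGCGGGA, beginning 12 bases before the start, and an overlapping TTTCCCGC on the opposite strand.

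Values are the deposited linear intensities, whose unit is not given, with array medians between 0.302 and 0.424 and summed intensities between 196271 and 219953. The siRNA targets were low in their own groups: Myt1 averaged 0.660 ± 0.21 in siMyT1 against 4.90 ± 0.34 in siControl, and Kdm1a averaged 4.49 ± 0.40 in siLSD1 against 29.0 ± 1.0 in siControl (SD, n = 3 each). Of the sympathoadrenal markers, 15 of 15 measured were above the median probe set. Their summed levels were 219.8 to 231.2 in siMyT1, 304.5 to 339.2 in siLSD1 and 269.1 to 292.5 in siControl. Against siControl, limma (adjusted p under 0.05) called 5 lower and 0 higher in siMyT1, with 2.29% and 5.12% of all genes. In siLSD1 it called 1 lower and 7 higher, with 4.93% and 3.97% of all genes. Directly compared, 10 were lower and 0 higher in siMyT1 than in siLSD1, with 5.58% and 13.2% of all genes. Markers of other cells summed to far lower levels, but not all lay below the median probe set. Of the fibroblast markers 5 of 8 (Col1a1, Col3a1, Lum, Pdgfra and Thy1) lay below it, and Col1a2, Dcn and Pdgfrb did not. The list summed to 5.24 to 5.83 in siMyT1, 4.16 to 4.19 in siLSD1 and 4.0 to 5.45 in siControl. In siMyT1 1 of the 8 was called higher by limma than in siControl, where 5.12% of all genes were. Haematopoietic markers summed to 1.03 to 1.60 over all arrays, with 3 of 4 (Ptprc, Cd68 and Adgre1) below the median probe set and Csf1r not. Epithelial markers summed to 1.5 to 2.57 (2 of 4 below the median probe set, Krt18 and Cdh1, and not Epcam and Krt8). Glial markers summed to 0.314 to 0.941 (1 of 2 below it, S100b, and not Sox10). Actin control probe sets had 3' over 5' ratios of 1.11 to 1.12 in siMyT1, 1.12 to 1.23 in siLSD1 and 1.15 to 1.19 in siControl. The part of these shifts in the results was not tested.

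Of the 9 genes, E2f2, E2f7 and E2f8 were lower in both knockdowns than in siControl, and lay between control and siLSD1 in siMyT1. E2f6 and Mybl2 fell in siLSD1 and did not pass the test in siMyT1, where each averaged 102% of control, E2f3 was slightly lower in siLSD1, and E2f1, E2f4 and E2f5 passed no test. In siMyT1 against siControl 3 of 9 genes were called lower and 0 higher by limma with Benjamini-Hochberg adjustment at an adjusted p under 0.05, where 7.41% of all genes were called, 2.29% lower and 5.12% higher. In siLSD1 against siControl 6 of 9 were lower and 0 higher, where 8.90% of all genes were called, 4.93% lower and 3.97% higher. The median log2 difference of the 9 genes was 0.02 in siMyT1 and -0.89 in siLSD1, against 0.05 and -0.03 over all genes. Directly compared, 5 of 9 were higher in siMyT1 than in siLSD1 and 0 lower, where 18.8% of all genes were called and 13.2% were called higher, with a median of 0.37 against 0.09 over all genes. At an unadjusted p under 0.05 limma gave 3 lower, 6 lower and 6 higher in these 3 comparisons, and 0 in the opposite direction. Both knockdowns were set against the same control arrays, so the first 2 comparisons are not independent. When only genes at or above the median level were tested, 1261 were higher and 596 lower in siMyT1 against siControl. In siLSD1 against siControl 933 were higher and 1254 lower, and directly compared 2584 were higher and 1168 lower in siMyT1. All 9 members were among the genes kept. Shares called among bright genes are therefore larger than the shares over all genes given here. In bulk RNA, fewer cells of a kind, such as cells in S phase, and less RNA per cell cannot be told apart. Over all probe sets, the share called was 3.24% in siMyT1 against siControl, 5.05% in siLSD1 against siControl and 11.2% in siMyT1 against siLSD1, and the arrays of the groups compared did not overlap for 24.0%, 26.8% and 33.0% of all genes. An exact permutation test of 3 arrays against 3 cannot go below p = 0.1, so single genes rest on the limma fit.

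**Figure D1:**
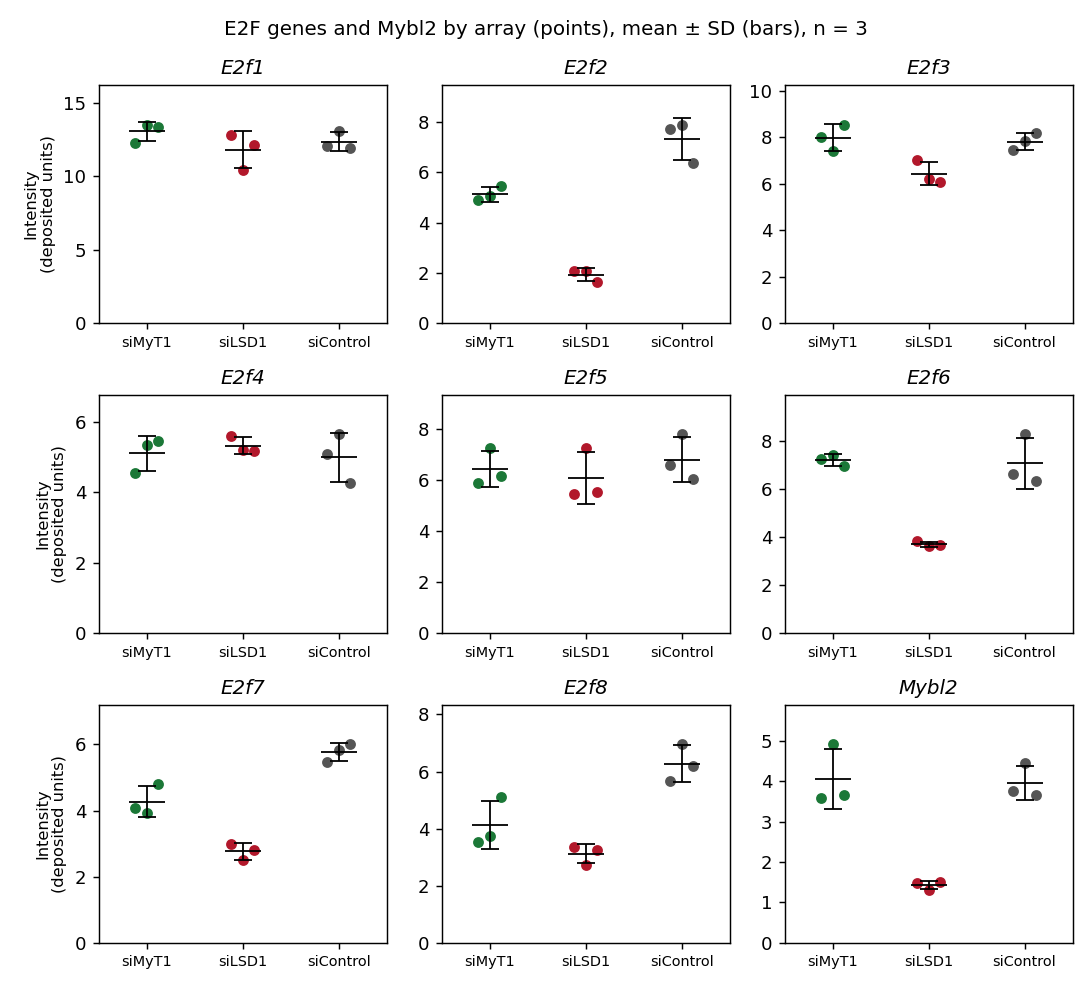
Deposited intensity (linear, unit not given) of the brightest probe set of each gene, 1 panel per gene, with 1 point per array and the mean and SD of each group (siMyT1, siLSD1, siControl; n = 3 each). E2f2, E2f7 and E2f8 lie in the middle in siMyT1, lowest in siLSD1 and highest in siControl, E2f6 and Mybl2 are low in siLSD1 and overlap between siMyT1 and siControl, and the groups of E2f1, E2f4 and E2f5 overlap.

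The activators parted from each other. E2f2 (probe set 1436434_at) measured 4.88, 5.03 and 5.44 in siMyT1, 2.07, 2.09 and 1.65 in siLSD1, and 7.71, 7.89 and 6.35 in siControl. No array of 1 group overlapped with another group, and siLSD1 lay lowest. The siMyT1 mean was 70.0% of control (log2 difference -0.49, SE 0.11, limma adjusted p = 0.0152) and the siLSD1 mean 26.4% of control (-1.82, SE 0.11, adjusted p = 1.10e-06). The direct difference was 1.32 (95% interval 1.09 to 1.56, adjusted p = 4.61e-06), so the level in siMyT1 was 2.65 times that in siLSD1. The second E2f2 probe set, 1455790_at, read 1.79, 2.14 and 1.67 in siMyT1, 1.11, 1.21 and 0.947 in siLSD1, and 2.47, 3.67 and 2.77 in siControl. Its groups kept the same order without overlap, with log2 differences of -0.61 (adjusted p = 0.0503 over all probe sets, not called) for siMyT1 and -1.29 (adjusted p = 0.000347) for siLSD1.

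E2f3 (1434564_at) read 7.998, 7.41 and 8.54 in siMyT1, 7.01, 6.20 and 6.08 in siLSD1, and 7.44, 7.83 and 8.17 in siControl. The siLSD1 arrays lay below all others, and siMyT1 overlapped with siControl. In siLSD1 the log2 difference was -0.28 (SE 0.08, limma adjusted p = 0.0440), and this call was lost under 13 of 19 alternatives, among them leaving out any 1 siControl array (adjusted p = 0.0747, 0.0979 and 0.135), siLSD1 replicate 2 (0.117) or 3 (0.181), median centring (0.361) and the replicate block (0.0795). The second E2f3 probe set, 1427462_at, differed by -0.25 in siLSD1 (adjusted p = 0.339) with overlapping arrays. In siMyT1 the brighter probe set differed from control by 0.03 (95% interval -0.14 to 0.20).

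E2f1 (1431875_a_at), whose product also drives apoptosis genes, read 12.3, 13.5 and 13.3 in siMyT1, 12.8, 10.4 and 12.1 in siLSD1, and 12.1, 13.1 and 11.9 in siControl. The 3 groups overlapped, and no test was passed. Its intervals of the log2 difference from control, -0.09 to 0.25 in siMyT1 and -0.24 to 0.10 in siLSD1, exclude a change of the size seen for E2f2 in siLSD1. A second E2f1 probe set, 1417878_at, lay between 5.496 and 7.02 on all arrays, and the last, 1447840_x_at, was dim (0.0604 to 0.388).

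The repressive partners of pocket proteins differed less. E2f4 (1451480_at) averaged 5.11 ± 0.50 in siMyT1, 5.32 ± 0.24 in siLSD1 and 4.99 ± 0.70 in siControl (SD, n = 3 each). E2f5 (1417444_at) averaged 6.43 ± 0.72 in siMyT1, 6.08 ± 1.0 in siLSD1 and 6.80 ± 0.90 in siControl. Arrays of the 3 groups overlapped for both of these probe sets, and the intervals of the log2 difference in siLSD1 were -0.13 to 0.32 for E2f4 and -0.42 to 0.10 for E2f5. A dimmer E2f5 probe set, 1460207_s_at, read 4.08, 4.95 and 4.39 in siMyT1, 3.78, 3.84 and 3.94 in siLSD1, and 4.87, 4.62 and 4.04 in siControl. Its siLSD1 arrays lay below all others, with a log2 difference from siControl of -0.21 (95% interval -0.41 to -0.01) that was not called by limma (unadjusted p = 0.0384, adjusted p = 0.263 over all probe sets). The last E2f5 probe set, 1447625_at, was not called in any of the 3 comparisons.

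E2f6 (1448835_at) read 7.26, 7.43 and 6.95 in siMyT1, 3.83, 3.61 and 3.66 in siLSD1, and 6.63, 8.29 and 6.33 in siControl. The siLSD1 arrays were close together and below all others, while siMyT1 lay within the control range. The siLSD1 mean was 52.3% of control (log2 difference -0.89, SE 0.09, limma adjusted p = 4.96e-05), and siMyT1 differed from control by 0.03 (95% interval -0.16 to 0.23). A dim second probe set, 1437914_at, read 0.391 to 0.434 in siLSD1 and 0.291 to 0.507 in siControl and was not called (0.15, adjusted p = 0.813). Averaging both probe sets ended the siLSD1 call (-0.37, adjusted p = 0.0907).

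The atypical repressors fell in both knockdowns. E2f7 (1437187_at) read 4.08, 3.92 and 4.81 in siMyT1, 2.99, 2.504 and 2.79 in siLSD1, and 5.46, 5.83 and 6.003 in siControl. E2f8 (1436186_at) read 3.55, 3.75 and 5.10 in siMyT1, 3.36, 2.74 and 3.26 in siLSD1, and 5.68, 6.95 and 6.18 in siControl. Every knockdown array of both genes lay below every control array, and siLSD1 lay below siMyT1 without overlap. E2f7 was at 74.1% of control in siMyT1 (log2 difference -0.42, SE 0.10, limma adjusted p = 0.0197) and 47.9% in siLSD1 (-1.01, SE 0.10, adjusted p = 2.60e-05). E2f8 was at 65.9% in siMyT1 (-0.59, SE 0.13, adjusted p = 0.0155) and 49.8% in siLSD1 (-0.96, SE 0.13, adjusted p = 0.000395). The direct difference passed the test for E2f7 (0.59, adjusted p = 0.000876) and missed it for E2f8 (0.37, 95% interval 0.09 to 0.65, adjusted p = 0.0653). The dimmer E2f8 probe set, 1444319_at, was lower in siLSD1 (-0.89, adjusted p = 0.0221) and gave -0.42 in siMyT1 (adjusted p = 0.355).

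The siMyT1 calls of E2f2, E2f7 and E2f8 each held under 15 of 19 alternatives. All 3 were lost without siControl replicate 2 (adjusted p = 0.0552, 0.0531 and 0.0567) and without siMyT1 replicate 2 (0.0583, 0.0822 and 0.0715), with limma's p unadjusted under 0.05 for all 3 in both cases. E2f2 was also lost without siControl replicate 1 (0.0714) and E2f7 without siControl replicate 3 (0.0773). The siLSD1 calls of E2f2, E2f7, E2f8 and Mybl2 held under 19 of 19.

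Mybl2 (1417656_at) read 3.59, 4.91 and 3.65 in siMyT1, 1.47, 1.32 and 1.51 in siLSD1, and 3.76, 4.45 and 3.66 in siControl. The siLSD1 arrays lay far below both other groups, which overlapped. The siLSD1 mean was 36.2% of control (log2 difference -1.35, SE 0.13, limma adjusted p = 2.41e-05), and the siMyT1 mean was 2.83 times that of siLSD1 (1.37, adjusted p = 1.29e-05). Between siMyT1 and siControl the difference was 0.02 (95% interval -0.25 to 0.30). The second probe set, 1454946_at, gave 3.05, 3.02 and 3.31 in siMyT1, 1.79, 1.26 and 1.73 in siLSD1, and 3.02, 4.04 and 3.05 in siControl. It repeated the pattern, with -0.995 in siLSD1 (adjusted p = 0.00125) and -0.09 in siMyT1 (adjusted p = 0.847).

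**Figure D2:**
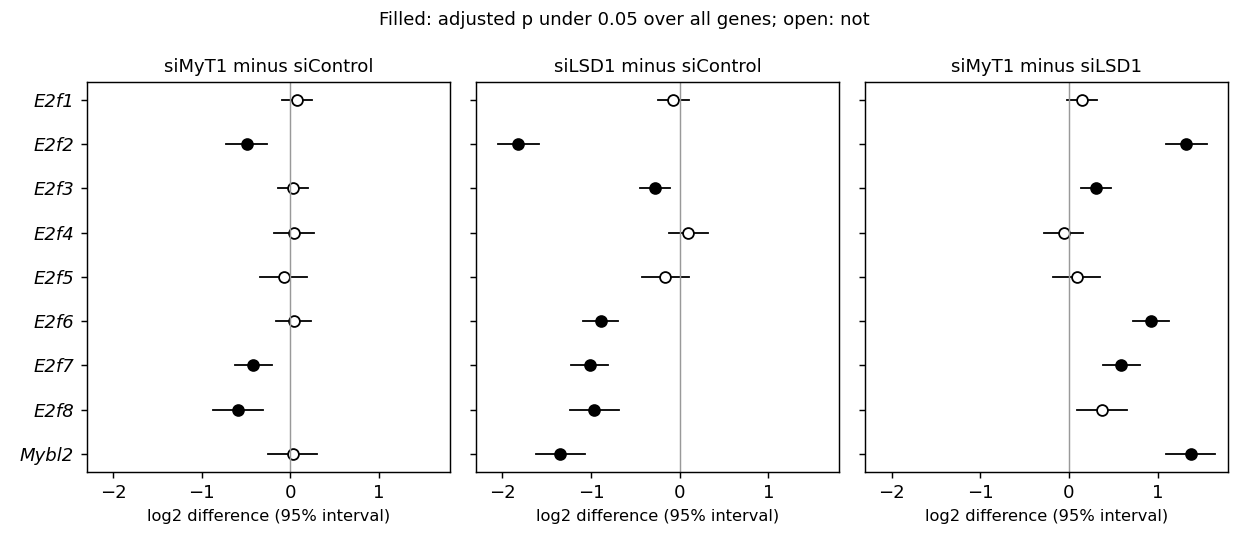
Log2 difference (x axis, bars are 95% intervals from limma, filled points are called) of each gene (rows) in siMyT1 against siControl, siLSD1 against siControl and siMyT1 against siLSD1. E2f2 in siLSD1 lies farthest from 0, at -1.82, and the siMyT1 intervals of E2f1, E2f3, E2f4, E2f5, E2f6 and Mybl2 span 0.

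**Figure D3:**
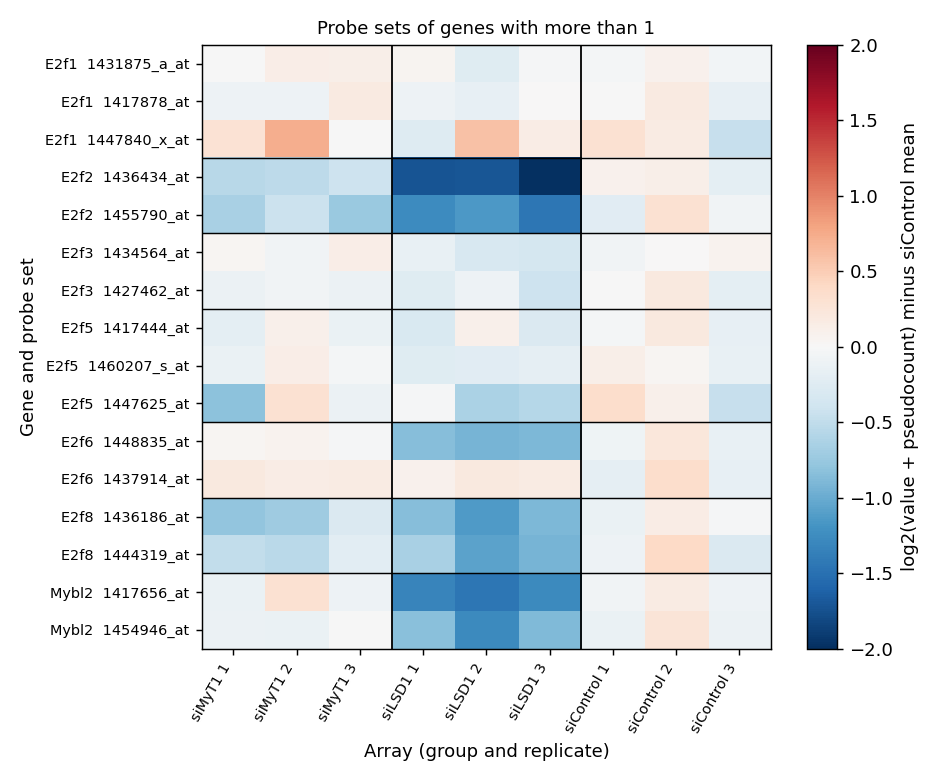
Heat map of log2(value + pseudocount) minus the siControl mean (colour scale, log2 units) for every probe set of the genes with more than 1, with probe sets as rows and the 9 arrays as columns (siMyT1, siLSD1, siControl). Both probe sets of E2f2, E2f8 and Mybl2 are lowest in siLSD1, whereas only the brighter of the E2f6 probe sets (1448835_at) is low there.

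DP proteins pair with E2Fs, and pocket proteins restrain them. Of the 5 DP partners and pocket proteins, 3 fell in siLSD1 and 0 rose (against 4.93% of all genes lower; median log2 difference -0.28 against -0.03), and the count was 2 after median centring, with the mean of all probe sets and with no intensity trend. In siMyT1 1 rose and 0 fell, where 5.12% of all genes were higher and 2.29% lower (median 0.01 against 0.05). There 1 was lower at limma's unadjusted p under 0.05. Tfdp2, a DP subunit of the E2F dimer, averaged 4.90 ± 0.35 in siMyT1, 2.69 ± 0.22 in siLSD1 and 4.48 ± 0.14 in siControl (SD, n = 3 each), and fell by 0.70 on the log2 scale in siLSD1 (limma adjusted p = 0.000236). Tfdp1, the other DP gene, averaged 28.9 ± 1.1 in siMyT1, 27.5 ± 1.3 in siLSD1 and 33.5 ± 1.4 in siControl and fell by 0.28 in siLSD1 (adjusted p = 0.0106), with -0.21 in siMyT1 (adjusted p = 0.0536). Rbl1, the gene of p107, fell by 0.49 in siLSD1 (adjusted p = 0.00148). Rbl2, the gene of p130, rose in siMyT1 to 4.59 ± 0.31, against 3.30 ± 0.34 in siControl (0.46, adjusted p = 0.0126), a call that ended with the mean of all probe sets and on leaving out siControl replicate 1 or 3, or siMyT1 replicate 3. Rb1 itself differed by -0.01 in siMyT1 (adjusted p = 0.960) and by -0.27 in siLSD1 (adjusted p = 0.0948).

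Among the MuvB core, FoxM1 and the Myb paralogues, 3 of 8 genes fell in siLSD1 and 0 rose (1 fell with the mean of all probe sets). Of all genes 4.93% were lower there (median log2 difference -0.35 against -0.03 over all genes). In siMyT1 0 were called, also at limma's unadjusted p under 0.05. With 7.41% of all genes called there, 0 of 8 is near that share (median -0.03 against 0.05). Lin54, the DNA-binding subunit of MuvB, fell by 0.37 in siLSD1 (adjusted p = 0.00670) and Myb, the gene of c-Myb, fell by 0.53 (adjusted p = 0.00279). Lin9, which joins B-Myb to the complex, fell by 0.50 (adjusted p = 0.0410), a call lost under 10 of 19 alternatives. Foxm1, which acts after B-Myb on mitotic genes, averaged 4.59 ± 0.63 in siMyT1, 3.75 ± 0.53 in siLSD1 and 5.14 ± 0.99 in siControl (siLSD1 -0.43, adjusted p = 0.0756). Mybl1, the gene of A-Myb, gave -0.34 in siLSD1 (adjusted p = 0.235), and Lin37, Lin52 and Rbbp4 lay between -0.03 and 0.14 in siLSD1 and were not called. Of 12 measured Polycomb partners of E2F6, 0 were called in either knockdown against siControl. Of all genes, 7.41% were called in siMyT1 and 8.90% in siLSD1. At limma's unadjusted p under 0.05, 1 was higher and 1 lower in siMyT1, and 2 were lower in siLSD1. Directly compared, 1 of the 12 was called, against 18.8% of all genes. It was Rnf2, a Polycomb ubiquitin ligase, higher in siMyT1 than in siLSD1 (0.23, limma adjusted p = 0.0363), a call lost under 9 of 19 alternatives.

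Of the 16 G1 cyclins, kinases and CDK inhibitors, which govern the release of E2F from pocket proteins, 1 rose and 2 fell in siMyT1, and 2 rose and 5 fell in siLSD1. The siMyT1 shares were 6.25% higher and 12.5% lower, against 5.12% and 2.29% of all genes (median log2 difference -0.05 against 0.05). In siLSD1 they were 12.5% and 31.2%, against 3.97% and 4.93% of all genes (median -0.12 against -0.03). Over the alternatives the siMyT1 rises numbered 0 to 2 and the falls 0 to 3. In siMyT1 Cdk2, the partner of cyclin E, rose by 0.34 (limma adjusted p = 0.00771), and the CDK inhibitor genes Cdkn1b and Cdkn2d fell by 0.51 (adjusted p = 0.0284) and 0.26 (adjusted p = 0.0306). In siLSD1 the D cyclin genes Ccnd1 and Ccnd3 rose by 0.64 (adjusted p = 3.43e-05) and 0.47 (adjusted p = 0.0120), the second at -0.046 (adjusted p = 0.920) when all its probe sets were averaged. The 5 that fell in siLSD1 were Ccne1 and Ccne2, the cyclin E genes, Cdk2, Cdkn2c, an inhibitor of CDK4 and CDK6, and Skp2, which marks p27 for destruction. Ccne2 averaged 5.19 ± 0.063 in siMyT1, 3.10 ± 0.21 in siLSD1 and 5.58 ± 0.79 in siControl (siLSD1 -0.80, adjusted p = 0.000164), and Cdkn2c fell by 0.99 (adjusted p = 3.75e-05). The call of Cdk2 in siLSD1 (-0.23, adjusted p = 0.0438) was lost under 14 of 19 alternatives, that of Cdkn2d in siMyT1 under 8 and that of Cdkn1b under 4. Ccnd3, Ccne1 and Skp2 here, and Mcm10 and Nek2 below, were chosen after their values were seen.

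Among genes known as E2F targets at the G1/S transition, which include Ccne1 and Ccne2, more were called in siLSD1 than in siMyT1. The list was bright, with mean log2 values of 10.3 to 10.9 per array against array medians of 6.35 to 6.66. Bright genes had larger shares called, as given above, so the shares over all genes are low for comparison with this list. Of 46 measured, 22 fell and 0 rose in siLSD1 (47.8% lower, against 4.93% of all genes; median log2 difference -0.34 against -0.03 over all genes), while 4 rose and 0 fell in siMyT1 (8.70% higher, against 5.12% of all genes; median 0.06 against 0.05, with 10 higher and 2 lower at limma's unadjusted p under 0.05). Directly compared, 35 were higher in siMyT1 than in siLSD1 and 0 lower (median 0.37 against 0.09). This was 76.1% higher, against 13.2% of all genes. Cdc45, a helicase subunit, averaged 5.98 ± 0.51 in siMyT1, 3.19 ± 0.26 in siLSD1 and 6.07 ± 0.25 in siControl (SD, n = 3 each). Rrm2, a subunit of ribonucleotide reductase, fell by 0.63 in siLSD1 (limma adjusted p = 6.77e-05), and Mcm4, another helicase subunit, averaged 19.0 ± 1.5 in siMyT1, 13.0 ± 0.15 in siLSD1 and 19.9 ± 0.56 in siControl. Cdc25a, a phosphatase that activates CDK2, differed by 0.81 between siMyT1 and siLSD1 (adjusted p = 0.000102). The 4 that rose in siMyT1 were Gins2, a helicase subunit (0.47, adjusted p = 0.00888), the licensing factor Cdc6 (0.39, adjusted p = 0.0348), Mcm6 (0.25, adjusted p = 0.0368) and Mcm10 (0.28, adjusted p = 0.0380). That count was 1 on leaving out siControl replicate 1, siControl replicate 3, siMyT1 replicate 2 or siMyT1 replicate 3, and 2 without siControl replicate 2. The count of falls in siMyT1 was 2 after quantile normalization and 1 with the filter on dim genes. After median centring 21 rather than 35 were higher in siMyT1 than in siLSD1.

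Targets of B-Myb and FoxM1 that act in G2 and mitosis were read in the same way. This list was bright too (mean log2 values of 9.66 to 10.3 per array), with the same limit on the shares over all genes. Of 38 measured, 16 fell and 0 rose in siLSD1, or 42.1% lower against 4.93% of all genes (median -0.31 against -0.03). In siMyT1 3 rose and 1 fell, shares of 7.89% and 2.63% near those of all genes, 5.12% and 2.29% (median 0.11 against 0.05). Directly compared, 23 were higher in siMyT1 than in siLSD1 and 0 lower (median 0.40 against 0.09 over all genes). This was 60.5% higher, against 13.2% of all genes, and the count was 17 to 31 over the alternatives. The siLSD1 count was 10 without siControl replicate 1, without siLSD1 replicate 3 and after median centring. Ccnf, the gene of cyclin F, fell by 0.87 in siLSD1 (limma adjusted p = 0.000687), and Mad2l1, of the spindle checkpoint, averaged 14.5 ± 0.52 in siMyT1, 7.02 ± 0.89 in siLSD1 and 12.04 ± 1.1 in siControl. Mki67, the Ki-67 gene, averaged 17.6 ± 1.1 in siMyT1, 14.4 ± 0.50 in siLSD1 and 19.3 ± 0.88 in siControl, and the checkpoint kinase gene Bub1 differed by 0.84 between siMyT1 and siLSD1 (adjusted p = 4.20e-05). In siMyT1 Pttg1, which encodes securin, rose to 23.5 ± 2.9, against 12.7 ± 0.55 in siControl (0.88, adjusted p = 5.27e-05), and it averaged 13.6 ± 0.85 in siLSD1. Cks2, a CDK-binding subunit, and Nek2, a centrosomal kinase, rose by 0.40 (adjusted p = 0.0110) and 0.31 (adjusted p = 0.0230) in siMyT1. Kif11, a spindle kinesin, was the 1 that fell, with 4.31 ± 0.57 in siMyT1, 3.95 ± 0.22 in siLSD1 and 6.16 ± 0.39 in siControl. The count of rises in siMyT1 was 1 without siMyT1 replicate 2 and 5 without siMyT1 replicate 1.

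**Figure D4:**
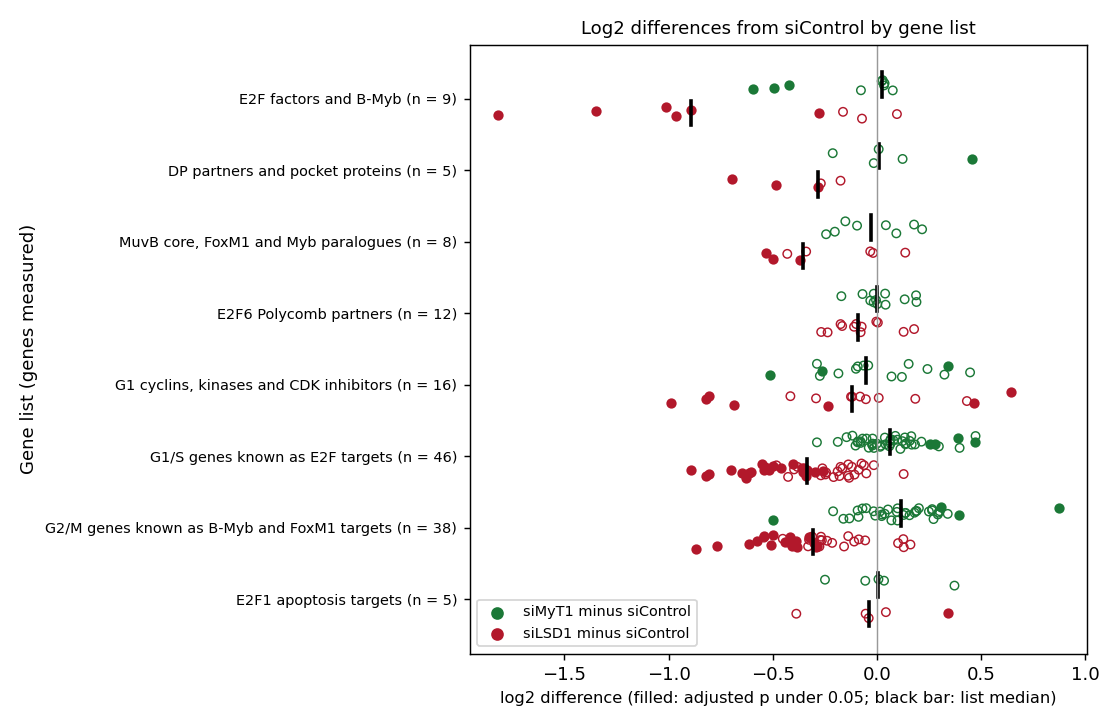
Log2 difference from siControl (x axis) of each measured gene of the E2F and B-Myb genes and of each partner and target list (rows) in siMyT1 and siLSD1. Filled points are called at an adjusted p under 0.05 and black bars are list medians, which for the G1/S and G2/M targets lie at 0.06 and 0.11 in siMyT1 and at -0.34 and -0.31 in siLSD1.

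Of 5 measured genes through which E2F1 promotes apoptosis, 0 were called in siMyT1, with 1 higher at limma's unadjusted p under 0.05. Of all genes 7.41% were called there. The list medians were 0.01 in siMyT1 and -0.04 in siLSD1, against 0.05 and -0.03 over all genes. In siLSD1 1 rose, where 3.97% of all genes were higher. This was Bbc3, the gene of the death-promoting protein Puma (0.34, limma adjusted p = 0.0396, lost under 8 of 19 alternatives). Apaf1, of the apoptosome, was higher in siMyT1 than in siLSD1 (0.33, adjusted p = 0.0471, lost under 10 of 19).

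Genes were also ranked by how closely their log2 values followed E2f2 or Mybl2 over the 9 arrays, among 9096 genes at or above the median level. Those closest to E2f2 were Dcun1d2 (Pearson r 0.996), Uhmk1 (0.988), Rad51ap1 (0.987), Msl3 (0.987) and Ttc7b (0.987). For Mybl2 they were Tmem39a (0.995), Adat2 (0.994), Ankrd27 (0.990), Lrig1 (0.989) and Hint3 (0.988). The arrays fall into 3 groups, so these values follow the group means, and they describe likeness of pattern in these arrays only.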

How the data were processed

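RNA of 9 Neuro2a samples was labelled with biotin for a 1-colour array, per the labels' protocols. The authors deposited linear intensities per probe set, with no statement, in the sources used here, of how they were summarised, background-corrected or scaled. Probe sets were named from the platform annotation, and of 45101 probe sets 34945 had 1 gene. A gene took the values of its brightest probe set on average, for 18193 genes in all.

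Because deposited values are small, they were multiplied by 163.6, which sets the 2% trimmed mean to 500 on average, and analysed as log2(value + 32), so that the pseudocount is 0.196 deposited units. A log2 difference on this scale understates the change of dim genes. limma 3.58.1 in R 4.3.3 (lmFit, eBayes with intensity trend) was fitted to all 9 arrays, two-sided, with Benjamini-Hochberg adjustment over all genes and a threshold of 0.05. Further probe sets of a member were taken from the same fit over 45037 probe sets, adjusted over them. The procedure was run on simulated data with normal noise and no shifts in scale between arrays. That run therefore does not bear on how results depend on scaling. For arrays, their number limits the precision. Alternatives covered normalization, pseudocount, filters, probe set choice, variance model, replicate block and leaving out each array, 19 per gene and comparison.

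The text names all members, the siRNA targets, all genes of the DP and pocket protein list and of the MuvB list, up to 3 called genes with the smallest adjusted p per other list and comparison, and 5 genes most like E2f2 and Mybl2. Members, lists and tests were chosen with earlier results of these data known.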

Additional observations from a re-analysis of the deposited data

How the results depend on the processing

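No member changed direction under any alternative in any comparison in which it was called. The count of members called in siMyT1 against siControl, 3, was 0 with no intensity trend in the variance model, where limma gave 3 at an unadjusted p under 0.05, and 0 to 3 when 1 array was left out. It was 5 to 6 when 1 array was left out in siLSD1 against siControl, against 6, and 4 to 6 in siMyT1 against siLSD1, against 5. With the replicate block 3, 5 and 5 members were called, and E2f3 in siLSD1 was the call it ended (adjusted p = 0.0795). Same-numbered replicates did not deviate together (correlations of -0.03 to 0.04), so the replicate number was not taken to pair samples. E2f8 in siMyT1 was also lost with the mean of all probe sets (adjusted p = 0.0745). The direct E2f8 difference passed the test under 5 of 19 alternatives (adjusted p as low as 0.00863) and that of E2f3 under 12 of 19. Ccnd3 in siLSD1 turned to -0.046 with the mean of all probe sets, and the cause was not tested. Of 3015 values of the other named genes under alternatives, 175 lost a call, 45 gained one and 1 reversed.

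The balance of calls over all genes moved with the scaling and with single arrays. In siMyT1 against siControl 931 were higher and 417 lower, with 1370 and 1093 after quantile normalization and 645 and 500 after median centring. In siLSD1 against siControl the counts were 722 and 897, with 1423 and 1382 after quantile normalization and 1106 and 557 after median centring. Directly, 2408 were higher and 1015 lower in siMyT1, with 2413 and 1923, and 1223 and 1711. Over the alternatives that keep all arrays, 563 to 1370 genes were higher and 202 to 1093 lower in siMyT1 against siControl, 455 to 1423 and 557 to 1648 in siLSD1 against siControl, and 1223 to 3113 and 741 to 1923 in the direct comparison. When 1 array was left out, the counts were 423 to 1174 and 214 to 313, 432 to 731 and 523 to 802, and 1525 to 2897 and 705 to 969. Higher calls then made up 57.9% to 81% of all calls in siMyT1 against siControl and 36.2% to 57.3% in siLSD1 against siControl (44.6% with all arrays), highest in the second without siControl replicate 2 (715 and 532). G1/S targets lower in siLSD1 numbered 16 to 28, and G2/M targets 10 to 25. In siMyT1 rises numbered 1 to 7 and 1 to 8, and falls 0 to 2 and 1 in every alternative. With 3 arrays a group, small differences such as those of E2f4 and E2f5 are bounded by their intervals only.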
